A study of Mus musculus with 8 samples.

Results

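The genes described here are *Atf4* and 9 genes that it controls or that make serine and use it for 1-carbon units, namely *Asns*, *Trib3*, *Chac1*, *Sesn2*, *Phgdh*, *Psat1*, *Psph*, *Shmt2* and *Mthfd2*. They were taken by symbol from the deposited table, in which each of the 10 has a single row among 23427 genes. The mRNA was that of primary mouse OPCs, the progenitors of OLs, of strain C57BL/6J and genotype WT. They were immunopanned with an antibody against PDGFRα from cortices of pups of postnatal day 7, for which the methods give 3 pups. Day 0 (2 libraries) holds OPCs in growth medium. Day 1, Day 2 and Day 3 (2 libraries each) hold cells on those days after PDGF-AA was withdrawn and the thyroid hormone T3 was added. The replicates were described as independent, and no group lacked T3 at the later days, so time in culture and the change of medium cannot be told apart. The sample labels name a culture medium with serum, whereas the methods name a defined medium, and which of them fed these cells is not settled by the sources used here.

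ATF4 is a transcription factor of the integrated stress response. When an eIF2α kinase senses a shortage of amino acids, unfolded protein or another stress, general translation slows while the *Atf4* mRNA is translated more, so the level of the mRNA is not that of the protein. ATF4 raises genes that import and make amino acids, among them the enzymes that turn a glycolytic intermediate into serine in a chain of steps (PHGDH, PSAT1 and PSPH). SHMT2 then moves a carbon of serine to folate in the mitochondria, and MTHFD2 oxidizes that folate. Proliferating cells draw on this carbon for nucleotides, and in the brain astrocytes are known to make much of the serine.

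ATF4 binds composite elements with the letters TGATGNAA, and the windows of 300 bases around the transcription starts of the 10 genes (RefSeq, GRCm38.p6) were searched for these letters on both strands. The core stood in the windows of *Asns*, *Trib3* and *Chac1*, in 3 of the 10 genes, against 4.51% of all 27025 genes with a window. Their sites are shown because they are the sequence feature that these targets share. The matched letters are in capitals, and each line reads along the strand of the gene.
*Asns*: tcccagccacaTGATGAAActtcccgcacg
*Trib3*: ttagctcaggtTTACATCAgccgggcgggg
*Chac1*: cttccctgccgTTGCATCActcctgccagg
Distances are from the RefSeq starts, which for these 3 genes differ from those of the GENCODE genes given below with the values. The *Asns* site lies at chr6:7693214-7693243 (minus strand), and its core begins 23 bases upstream of the start. The *Trib3* site lies at chr2:152344028-152344057 (minus strand), 14 bases downstream of the start, and the *Chac1* site at chr2:119351038-119351067 (plus strand), 193 bases upstream. The *Trib3* and *Chac1* sites hold the reverse complement of the core. The windows of *Atf4*, *Sesn2*, *Phgdh*, *Psat1*, *Psph*, *Shmt2* and *Mthfd2* held no match to these letters. Among the genes tested whose window held the core, 54 of 223 (24.2%) were lower on Day 3 than on Day 0, against 26.6% of all tested genes with a window, a share near that of the background.

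The values are FPKM, fragments scaled by transcript length and by the size of the library, and the depth read from the steps between low values was about 940000 to 1510000 fragments per library, lowest on Day 3. The 4 OPC and lineage markers summed to 1099 and 1175 FPKM on Day 0 and to 497 and 682 on Day 3, but they did not move alike. The means of *Pdgfra* (443 to 17.9 FPKM), *Cspg4* (58.5 to 0.901) and *Olig2* (258 to 135) were lower on Day 3 and that of *Sox10* (377 to 436) was not. The 5 OL markers (*Mbp*, *Mag*, *Mog*, *Mobp* and *Cnp*) summed to 508 and 549 FPKM on Day 0 and to 12374 and 17214 on Day 3. The 4 markers of dividing cells (*Mki67*, *Top2a*, *Ube2c* and *Ccnb1*) summed to 615.8 and 814.5 FPKM on Day 0 and to between 4.93 and 46.5 in the 6 later libraries. The 7 astrocyte markers summed to between 120 and 173 FPKM in replicate 1 and to between 350 and 904 in replicate 2, with *Gjb6* at 0 in every library. *Gfap* alone was at 14.7 to 45.5 FPKM in replicate 1 and at 154 to 603 in replicate 2. The marker sums for microglia, endothelial cells and mural cells stayed at or below 2.51 FPKM, with *Aif1*, *Cx3cr1*, *Csf1r* and *C1qa* at 0 throughout. The 4 neuron markers summed to between 31.0 and 232 FPKM, most of it *Tubb3* (20.8 to 231 FPKM), with *Rbfox3* at 0 in 6 of the 8 libraries. The mean of *Tubb3* was higher on Day 3 than on Day 0 (40.5 to 172 FPKM). Those of *Snap25* (5.31 to 0.739) and *Syt1* (1.89 to 1.04) were lower. In bulk RNA, fewer cells of a type and less RNA per cell cannot be told apart.

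*Atf4* mRNA showed no change that passed the test, while *Phgdh*, *Asns*, *Mthfd2*, *Shmt2* and *Psat1* fell. From Day 0 to Day 3, 6 of the 10 genes were lower at an adjusted p under 0.05 (limma on log2(FPKM + 1), Benjamini-Hochberg over 12208 genes) and 0 were higher. Of all genes tested, 26.3% were lower and 12% higher at that adjusted p. At an unadjusted p under 0.05 the count was the same 6, with no share of all genes given. The sixth gene was *Trib3*, which passed the filter on low values only through Day 0 and rests on a few fragments, and without it the count is 5 of 9. The log2 fold changes of the 5 lay between -2.45 and -1.15. The median change was -1.24 over the 10 genes and -1.15 without *Trib3*, beside -0.31 over all genes tested. The other 4 (*Atf4*, *Chac1*, *Sesn2* and *Psph*) did not pass. Both Day 3 libraries were below both Day 0 libraries for 7 of the 10, the 6 genes and *Psph* (6 of 9 without *Trib3*), against 48.6% of all genes tested. With the replicate number as a block in the model, *Sesn2* and *Psph* also passed, for 8 lower genes with *Trib3* among them. The share of all genes under that fit is not given. The same 8 genes, *Trib3* included, were lower on Day 3 within each replicate series, as were 54.0% of all genes tested, and *Chac1* was higher in both.

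**Figure D1:**
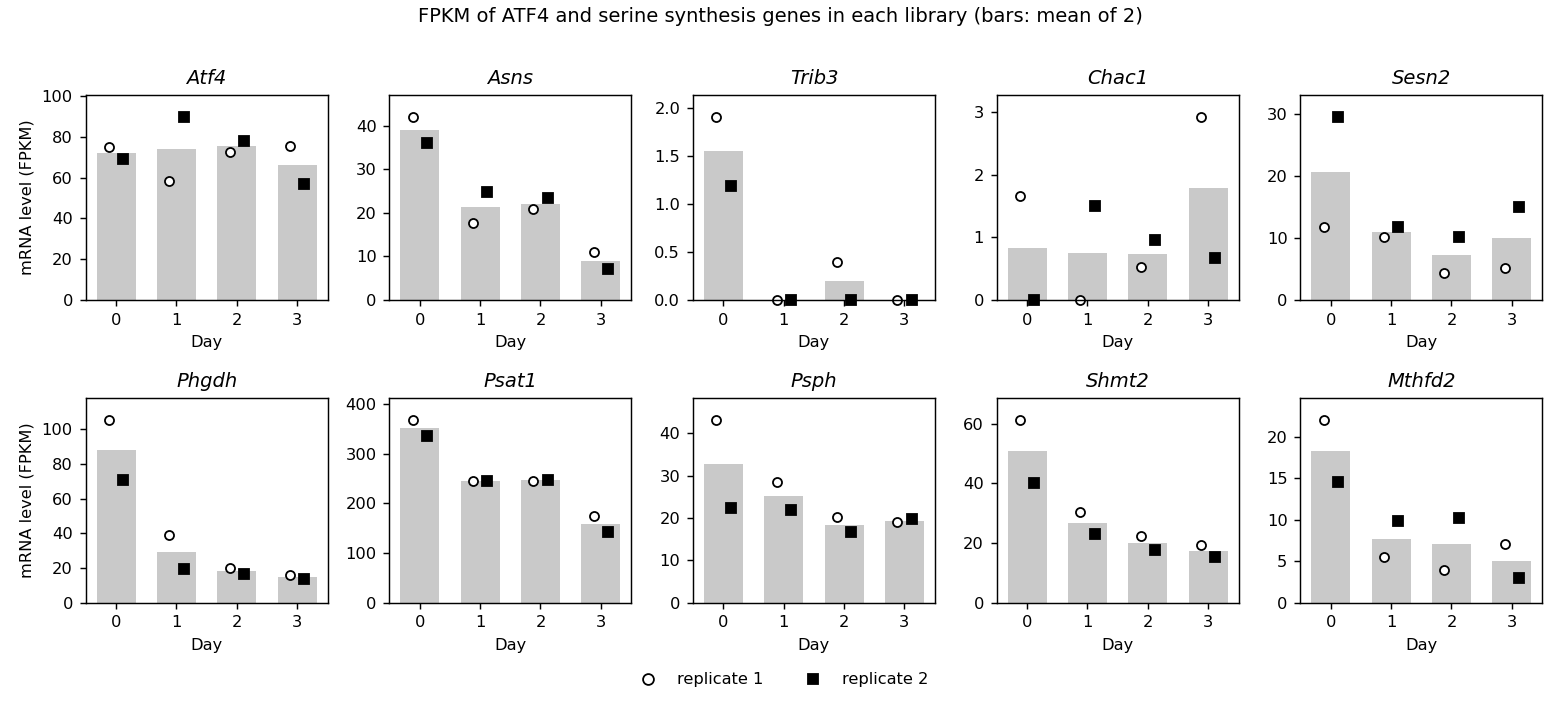
FPKM of the 10 genes (y axis, each panel on its own linear scale from 0) against day of differentiation (x axis), with bars for the mean of 2 libraries, circles for replicate 1 and squares for replicate 2. *Atf4* stays between 56.9 and 89.8 FPKM in the 8 libraries, while *Phgdh* falls from 106 and 71.0 FPKM to 16.2 and 13.9.

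*Atf4* (chromosome 15, 80255184 to 80257541, GRCm38) was at 74.8 and 69.0 FPKM on Day 0 (replicate 1 and replicate 2, here and below), then 58.6 and 89.8 (Day 1), 72.8 and 77.9 (Day 2) and 75.5 and 56.9 (Day 3). The libraries of each later day overlapped with those of Day 0, and the widest gap between replicates was on Day 1. The change to Day 3 was -0.13 on the log2 scale (SE 0.22, 95% interval -0.63 to 0.36, adjusted p = 0.660 from limma). The lower bound is nearer to 0 than the changes of *Asns* and *Phgdh*, and the interval allows a smaller change in either direction. The sign turned with the scaling of the libraries, to 0.18 with median ratio scaling.

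*Asns* encodes asparagine synthetase and is a classical target of ATF4 (chromosome 6, 7675169 to 7693254). It was at 41.9 and 35.9 FPKM on Day 0, then 17.8 and 24.8 (Day 1), 20.9 and 23.4 (Day 2) and 10.9 and 7.04 (Day 3). Each Day 3 library was below every earlier library, and the Day 1 and Day 2 libraries overlapped. By the shortest and longest annotated transcripts, about 5 to 24 fragments (replicate 1) and 3 to 13 (replicate 2) stood behind the Day 3 values. The mean was 4.33-fold lower on Day 3 than on Day 0 (log2 fold change -2.02 ± 0.24 (SE), limma adjusted p = 4.96e-04). In the same libraries the ratio of *Asns* to *Atf4* FPKM was 0.561 and 0.521 on Day 0, then 0.303 and 0.276 (Day 1), 0.287 and 0.3001 (Day 2) and 0.145 and 0.124 (Day 3). The ratio was lower in each Day 1 library than in both Day 0 libraries and lower again in each Day 3 library, and the Day 1 and Day 2 libraries overlapped.

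*Sesn2* encodes sestrin 2, which signals a lack of leucine to mTORC1 and is raised by stress (chromosome 4, 132492032 to 132510501). It was at 11.8 and 29.5 FPKM on Day 0, then 10.1 and 11.8 (Day 1), 4.33 and 10.2 (Day 2) and 5.18 and 14.9 (Day 3). Replicate 2 was above replicate 1 on each of the 4 days, so that Day 3 overlapped with Day 0 although both series ended lower than they began. The change to Day 3 was -0.99 on the log2 scale (SE 0.56, 95% interval -2.28 to 0.29, limma adjusted p = 0.196). A model with the replicate block gave an SE of 0.30 and an adjusted p of 0.0283.

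*Trib3* and *Chac1* were near the limit of what this depth can measure. *Trib3* encodes a pseudokinase that feeds back on ATF4 (chromosome 2, 152337422 to 152344032). It was at 1.91 and 1.19 FPKM on Day 0 and at 0.400 in replicate 1 of Day 2, and was listed at 0 in the other 5 libraries. By the estimated depth, the Day 0 values correspond to about 6 and 3 fragments and the Day 2 value to 1. The transcript length that these estimates imply (2080 nt) is above the longest annotated one (2026 nt). *Trib3* passed the test from Day 0 to Day 3 (log2 fold change -1.34 with an SE of 0.36, limma adjusted p = 0.0199), but it also passed the filter on low values only through the Day 0 libraries. The smallest level taken as measurable (3 fragments) was 1.35 and 1.53 FPKM in the Day 3 libraries, close to the Day 0 values, so no fold is given. *Chac1* encodes an enzyme that degrades glutathione and is a sensitive marker of ATF4 activity (chromosome 2, 119351229 to 119354381). It was at 1.66 and 0 FPKM on Day 0, then 0 and 1.49 (Day 1), 0.523 and 0.957 (Day 2) and 2.92 and 0.665 (Day 3). By the estimated depth these values rest on about 0 to 5 fragments. No difference between days was detectable at this depth (0.65 on the log2 scale between Day 0 and Day 3, 95% interval -0.84 to 2.14, limma adjusted p = 0.461).

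Of the enzymes of serine synthesis, *Phgdh* and *Psat1* fell, by unequal amounts. *Phgdh* encodes phosphoglycerate dehydrogenase, the enzyme of the entry step (chromosome 3, 98313170 to 98339990). It was at 106 and 71.0 FPKM on Day 0, then 38.8 and 19.6 (Day 1), 19.7 and 16.5 (Day 2) and 16.2 and 13.9 (Day 3). Every later library was below both Day 0 libraries, and the Day 3 libraries were below every other library. The mean was 5.86-fold lower on Day 3 (log2 fold change -2.45 with an SE of 0.31, limma adjusted p = 6.49e-04). A lower value was seen in 3.04% of the genes tested.

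*Psat1* encodes phosphoserine aminotransferase, the enzyme of the middle step (chromosome 19, 15904678 to 15947337). It was at 369 and 336 FPKM on Day 0, then 245.5 and 244.8 (Day 1), 245.3 and 248 (Day 2) and 175 and 142 (Day 3). Its replicates nearly coincided on Day 1 and on Day 2, those days overlapped, and the Day 0 libraries lay above and the Day 3 libraries below them all. The mean was 2.22-fold lower on Day 3 than on Day 0 (log2 fold change -1.15 with an SE of 0.14, limma adjusted p = 4.76e-04).

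*Psph* encodes phosphoserine phosphatase, which releases serine (chromosome 5, 129765558 to 129787449). It was at 43.3 and 22.3 FPKM on Day 0, then 28.6 and 21.9 (Day 1), 20.3 and 16.6 (Day 2) and 19.1 and 19.7 (Day 3). Replicate 1 of Day 0 stood above the other 7 libraries. The change to Day 3 was -0.65 on the log2 scale (SE 0.29, 95% interval -1.33 to 0.02, limma adjusted p = 0.112, and 0.0495 with the block). It was -1.14 within replicate 1 and -0.17 within replicate 2, and without replicate 1 of Day 0 it was -0.19. *Psph* shares 452 bp of exon with *Cct6a* on the other strand, which reached 163 FPKM. Whether the authors counted by strand is not given in the sources used here, so the *Psph* values are uncertain.

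**Figure D2:**
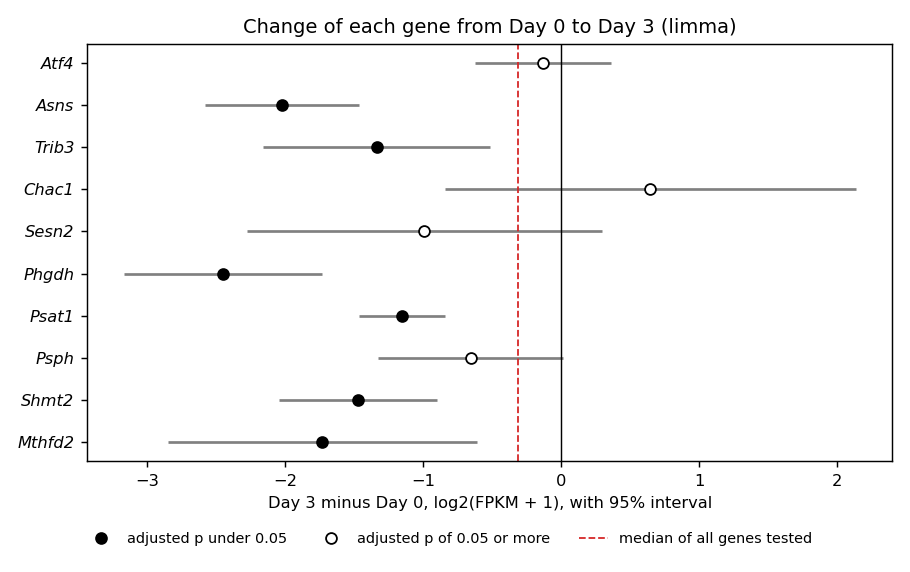
Change from Day 0 to Day 3 (x axis, difference in log2(FPKM + 1)) of each of the 10 genes (y axis), with the limma estimate as a point and its 95% interval as a line. Filled points are below an adjusted p of 0.05, and the dashed line is the median of all genes tested at -0.31. *Atf4* lies at -0.13 and *Phgdh* at -2.45.

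Of the mitochondrial folate enzymes, *Shmt2* and *Mthfd2* were lower on Day 3. Further enzymes, named for their place in the pathway, were mixed. *Mthfd2l* was lower as well (8.28 to 2.94 FPKM, log2 fold change -1.32, adjusted p = 0.0396 from limma). Its libraries were at 6.39 and 10.2 FPKM on Day 0 and at 4.49 and 1.39 on Day 3. Whether its call held under the other scalings is not given. *Mthfd1l* (-0.13, adjusted p = 0.764) and *Aldh1l2* (-0.49, adjusted p = 0.0547, and 0.0495 with the block) did not pass. *Shmt2* encodes serine hydroxymethyltransferase 2 (chromosome 10, 127517123 to 127522444). It was at 61.4 and 40.3 FPKM on Day 0, then 30.4 and 23.1 (Day 1), 22.4 and 17.6 (Day 2) and 19.5 and 15.4 (Day 3). All later libraries were below both Day 0 libraries, and replicate 1 was above replicate 2 on each day. The mean was 2.91-fold lower on Day 3 (log2 fold change -1.47 with an SE of 0.25, limma adjusted p = 0.00257). *Mthfd2* encodes methylenetetrahydrofolate dehydrogenase 2 (chromosome 6, 83305691 to 83325908). It was at 22.04 and 14.6 FPKM on Day 0, then 5.51 and 9.82 (Day 1), 3.97 and 10.2 (Day 2) and 7.09 and 3.03 (Day 3). Both Day 0 libraries were above all later ones, and the higher replicate changed from day to day. These values rest on about 6 to 70 fragments by the longest annotated transcript and on about 1 to 12 by the shortest. The mean was 3.62-fold lower on Day 3 (log2 fold change -1.73 with an SE of 0.49, limma adjusted p = 0.0239), and this call was lost with median ratio scaling (adjusted p = 0.0550) and with quantile normalization (0.0535). It was also lost without either Day 0 library or without replicate 2 of Day 3, with changes of -1.45, -2.01 and -1.23.

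*Phgdh* and *Psat1* were already lower on Day 1. Relative to Day 0, *Phgdh* (log2 fold change -1.61, adjusted p = 0.0124), *Psat1* (-0.52, adjusted p = 0.0430) and *Trib3* (-1.34, adjusted p = 0.0465) passed in limma, 3 of the 10 genes against 7.56% of all genes tested. Without *Trib3*, listed at 0 on Day 1 and kept by the filter only through Day 0, the count is 2 of 9. None of the 10 was higher, against 5.04%. At an unadjusted p under 0.05 there were 6, with no share of all genes given. Both Day 1 libraries were below both Day 0 libraries for 7 of the 10 (6 of 9 without *Trib3*), against 33.4% of all genes. These were the 3 above, *Shmt2*, *Asns*, *Mthfd2* and, by a narrow margin, *Sesn2*. Both Day 1 libraries were above both Day 0 libraries for 0, against 24.3%. *Shmt2* (-0.88, adjusted p = 0.0546) and *Asns* (-0.86, adjusted p = 0.0547) lay just outside the threshold. With the block *Shmt2* passed (adjusted p = 0.00711) and *Asns* did not (0.0521). Without replicate 1 of Day 0 or replicate 2 of Day 1 the 3 calls were reduced to 0, and without replicate 2 of Day 0 or replicate 1 of Day 1 to 1. The markers of dividing cells fell in the same step, and on Day 1 their sum was 46.5 FPKM in replicate 1 and 4.93 in replicate 2, where *Phgdh* was 38.8 and 19.6. Their part in the fall was not tested.

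From Day 1 to Day 2, 0 of the 10 genes passed the test in limma, and 0 had an unadjusted p under 0.05. Of all genes tested, 2.16% were higher and 1.73% lower in that step. Both Day 2 libraries were below both Day 1 libraries for *Psph* and *Shmt2*, 2 of the 10, against 37.6% of all genes. From Day 2 to Day 3, 0 of the 10 passed either, where only 0.246% of all genes were higher and 0.0491% lower. In that last step, with no share of all genes given, 2 genes had an unadjusted p under 0.05. They were *Asns*, which went from a mean of 22.1 to 8.99 FPKM (log2 fold change -1.24, adjusted p = 0.0848), and *Psat1*, which went from 246.5 to 159 FPKM (-0.64, adjusted p = 0.0931). Both Day 3 libraries were below both Day 2 libraries for these 2 genes and for *Phgdh*, 3 of the 10 against 21.8% of all genes. With a library of these days left out, the log2 fold change ranged from -1.52 to -0.95 for *Asns* and from -0.79 to -0.49 for *Psat1*. The dividing cell markers summed to 9.04 and 6.80 FPKM on Day 2 and to 15.6 and 12.5 on Day 3. Their part in the changes of this step was not tested.

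**Figure D3:**
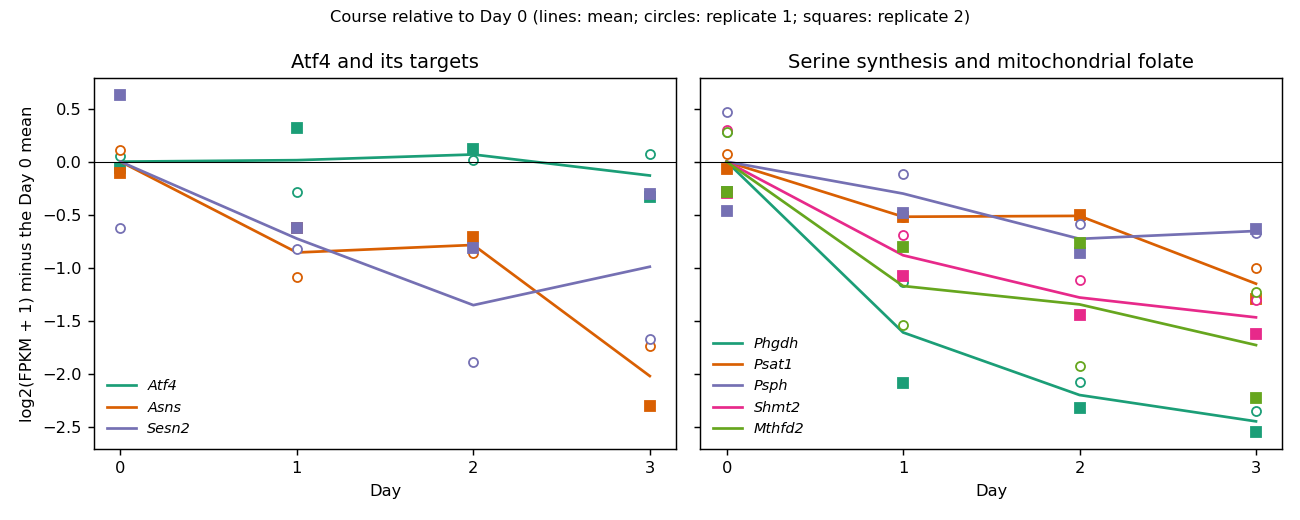
log2(FPKM + 1) minus the Day 0 mean (y axis) against day (x axis) for *Atf4*, *Asns* and *Sesn2* (left) and for the serine and folate genes (right), with lines for means, circles for replicate 1 and squares for replicate 2. *Phgdh* is at -1.61 on Day 1, and *Asns* and *Psat1* drop again between Day 2 and Day 3, by steps of -1.24 and -0.64.

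The order of the genes by FPKM, which is per length, changed below the top. *Psat1* was the highest on each day, at 352 ± 23.4 FPKM (SD, n = 2) on Day 0 and 159 ± 23.3 on Day 3, with no overlap with the next gene. On Day 0 *Phgdh* (88.3 ± 24.4) and *Atf4* (71.9 ± 4.14) came next, and their libraries overlapped. From Day 1 on *Atf4* was second without overlap, at 74.2 ± 22.03, 75.4 ± 3.62 and 66.2 ± 13.1 FPKM. On Day 3 *Psph* (19.4 ± 0.429), *Shmt2* (17.4 ± 2.90), *Phgdh* (15.1 ± 1.57), *Sesn2* (10.1 ± 6.90), *Asns* (8.99 ± 2.76) and *Mthfd2* (5.06 ± 2.87) followed, and each of them overlapped with its neighbour. *Chac1* and *Trib3* were the lowest on every day.

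Within the serine chain the balance of the transcripts shifted early. The ratio of *Psat1* to *Phgdh* FPKM was 3.49 and 4.73 on Day 0, then 6.33 and 12.5 (Day 1), 12.4 and 15.1 (Day 2) and 10.8 and 10.2 (Day 3), and each later library was above both Day 0 libraries. *Psat1* to *Psph* was 8.53 and 15.1 on Day 0 and 9.18 and 7.22 on Day 3, and it showed no such separation over the 4 days. *Phgdh* to *Psph* went from 2.44 and 3.19 on Day 0 to 0.847 and 0.708 on Day 3, and every later library was below both Day 0 libraries. These ratios were formed after the values were seen and are given without a test.

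**Figure D4:**
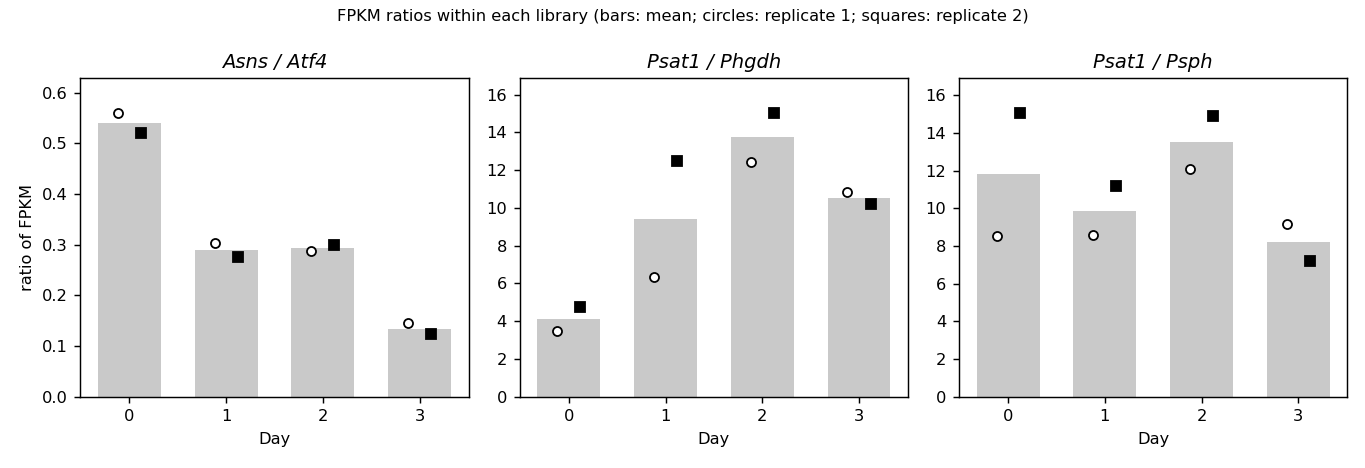
Ratio of FPKM of a pair of genes in the same library (y axis, linear from 0) against day (x axis), with bars for the mean of 2 libraries, circles for replicate 1 and squares for replicate 2. *Asns* over *Atf4* falls from 0.561 and 0.521 on Day 0 to 0.145 and 0.124 on Day 3, *Psat1* over *Phgdh* rises from 3.49 and 4.73 to 10.8 and 10.2, and *Psat1* over *Psph* overlaps between these days.

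Other known targets of ATF4 moved in both directions. Of a list of 40, 35 could be tested. From Day 0 to Day 3, 14 were lower and 4 higher (limma), against 26.3% and 12% of all genes tested, and the median was -0.52 beside -0.31 over all genes. With the replicate block 16 were lower and 4 higher. Median ratio scaling put the median of all genes at -0.04, and 8 targets were then lower and 4 higher. The shares of all genes under these fits are not given. The largest falls were in *Slc7a5*, the leucine transporter (50.5 to 6.53 FPKM, log2 fold change -2.76, adjusted p = 2.20e-04), and in *Eif4ebp1*, a repressor of cap-dependent translation (8.89 to 1.47 FPKM, -1.95, adjusted p = 0.00532). They were followed by *Slc7a1*, an arginine and lysine transporter (18.3 to 6.28 FPKM, -1.42), and by *Cth*, which makes cysteine (2.26 to 0.290 FPKM, -1.36). *Cth*, counted among the 14 and in the median, passed the filter only through the Day 0 libraries. Its call was lost with quantile normalization (limma adjusted p = 0.0744). Its Day 3 libraries were at 0 and 0.58 FPKM, so the size of its fall is uncertain. The count and median without *Cth* are not given. The 4 that rose were *Ddit3*, which encodes the stress factor CHOP (6.46 to 20.3 FPKM, 1.55, adjusted p = 0.0171), *Vldlr*, a lipoprotein receptor (11.1 to 30.1 FPKM, 1.36, adjusted p = 7.71e-04), *Ddit4*, an inhibitor of mTORC1 (33.8 to 56.6 FPKM, 0.71, adjusted p = 0.0401), and *Iars*, an isoleucine tRNA synthetase (42.7 to 69.3 FPKM, 0.68, adjusted p = 0.00611). *Ddit3* was at 8.23 and 4.68 FPKM on Day 0, then 14.04 and 5.39 (Day 1), 7.54 and 7.76 (Day 2) and 18.9 and 21.6 (Day 3), with both Day 3 libraries above all others. *Fgf21* and *Nupr1* were listed at 0 in all 8 libraries, and *Gdf15*, *Slc7a11* and *Stc2* were too low to test.

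Of 9 genes of the eIF2α kinase arm, which acts upstream of ATF4, 1 was lower and 1 higher from Day 0 to Day 3 (limma), against 26.3% and 12% of all genes tested, with a median of -0.26, near that of all genes at -0.31. With median ratio scaling the median was 0.04, with all genes at -0.04. The gene that fell was *Ppp1r15a*, which encodes the stress-induced subunit of the eIF2α phosphatase. It was at 9.78 and 9.78 FPKM on Day 0, then 9.44 and 9.38 (Day 1), 5.63 and 5.79 (Day 2) and 4.72 and 4.03 (Day 3) (log2 fold change -1.01, adjusted p = 0.00854). The call was lost with quantile normalization (adjusted p = 0.0574), and with the replicate block *Gcn1l1*, which encodes an activator of GCN2, passed as a lower gene as well, for 2. The gene that rose was *Impact*, whose protein restrains the kinase GCN2. It was at 17.9 and 17.3 FPKM on Day 0, then 22.1 and 21.2 (Day 1), 27.3 and 23.2 (Day 2) and 37.9 and 33.2 (Day 3) (0.97, adjusted p = 0.00220). The 4 kinases, *Eif2ak1*, *Eif2ak2*, *Eif2ak3* and *Eif2ak4*, did not pass and are named for their role, with changes between -0.96 and 0.02.

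Of 22 other genes that handle serine, glycine and folate, 21 could be tested, and 10 were lower and 1 higher from Day 0 to Day 3 (limma), against 26.3% and 12% of all genes tested. The median was -0.74 beside -0.31 over all genes. With median ratio scaling 6 were lower and 1 higher, and with the replicate block 12 and 1. The shares of all genes under these fits are not given. The largest falls were in *Shmt1*, the cytosolic counterpart of *Shmt2* (14.2 to 0.253 FPKM, log2 fold change -3.63, adjusted p = 4.35e-04), *Tyms*, thymidylate synthase (14.9 to 1.91 FPKM, -2.45, adjusted p = 5.23e-04), and *Sfxn1*, the mitochondrial serine carrier (47.6 to 8.88 FPKM, -2.30, adjusted p = 8.42e-05). *Shmt1* was at 0 and 0.5055 FPKM in the Day 3 libraries, so the size of its fall is uncertain. *Tyms* also serves DNA synthesis, and the summed markers of dividing cells fell over the same days, from 615.8 and 814.5 FPKM to 15.6 and 12.5. Their part was not tested.

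**Figure D5:**
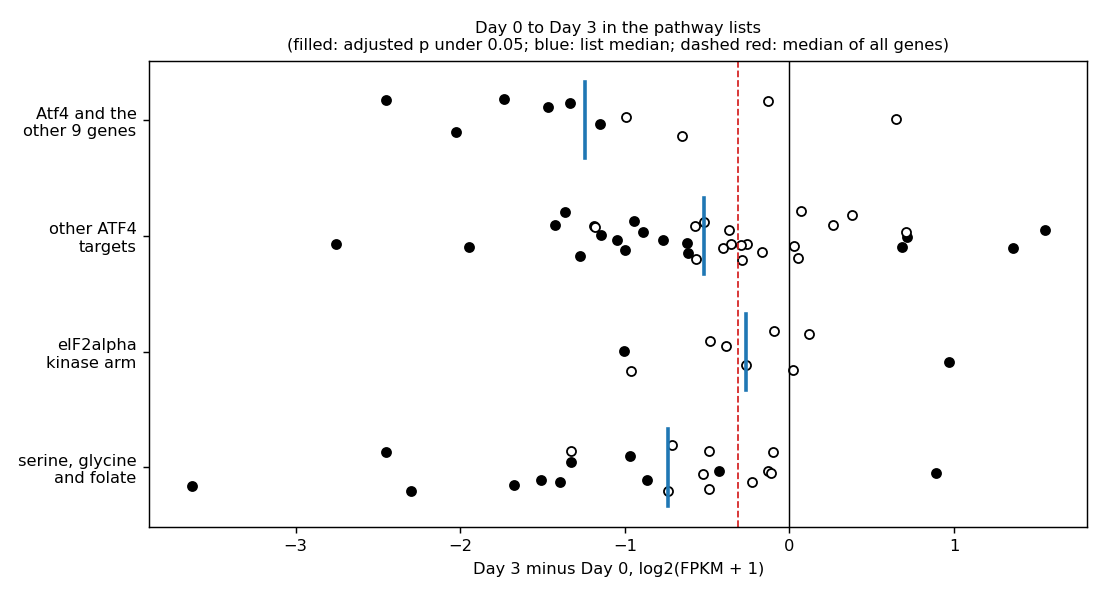
Change from Day 0 to Day 3 (x axis, difference in log2(FPKM + 1)) of each gene tested in the 4 lists (y axis), with filled points below an adjusted p of 0.05 (limma), blue bars for list medians and a dashed line for the median of all genes at -0.31. The medians are -1.24 for *Atf4* and the other 9 genes, -0.52 for other ATF4 targets, -0.26 for the eIF2α kinase arm and -0.74 for serine, glycine and folate genes.

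The replicate series differed in their astrocyte markers and in some other markers. The 10 genes were compared between the series with the day in the model. None of the 10 passed (limma), where 0.68% of all genes tested were higher in replicate 2 and 0.369% lower. At an unadjusted p under 0.05 there were 4, with no share of all genes given. *Sesn2* was higher in replicate 2 on 4 of 4 days (log2 difference 0.97, SE 0.21, adjusted p = 0.101). *Phgdh* (-0.49, SE 0.15, adjusted p = 0.219) and *Shmt2* (-0.41, SE 0.11, adjusted p = 0.180) were lower in replicate 2 on 4 of 4 days, and *Psph* on 3 (-0.38, SE 0.16, adjusted p = 0.410). Replicate 2 also held more of the astrocyte markers *Gfap*, *Aqp4* and *Slc1a3* (log2 differences 3.55, 3.97 and 1.27, each at a limma adjusted p under 0.05). *Aqp4* was at 22.9 to 84.8 FPKM against 0.802 to 3.97 in replicate 1. *Slc1a2* and *Aldoc* were higher on 4 of 4 days but did not pass (adjusted p = 0.155 and 0.168). *Fgfr3* was higher on 2 days and lower on 2 (adjusted p = 0.611). *Aldh1l1*, a folate enzyme and astrocyte marker named after its values were seen, was at 6.34 to 8.12 FPKM in replicate 2 and at 0 to 1.27 in replicate 1. Of the OPC and OL markers, *Pdgfra* was lower in replicate 2 (log2 difference -1.81, limma adjusted p = 0.0461) and *Mag* higher (0.69, adjusted p = 0.0425). The others did not pass. *Tubb3* was lower in replicate 2 (-1.15, adjusted p = 0.00350). The summed markers of dividing cells were lower in replicate 2 on each day, though *Top2a* was not on Day 3 nor *Ube2c* on Day 2. No single marker of dividing cells passed (adjusted p from 0.295 to 0.446). The part of any of these marker groups in the differences of the 10 genes was not tested.

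Over the 8 libraries, *Phgdh* and *Shmt2* ran together (Pearson r = 0.983 of log2(FPKM + 1)), as did *Asns* and *Psat1* (r = 0.985), whereas *Atf4* had r = 0.49 with *Asns* and -0.05 with *Phgdh*. These are descriptions over libraries that share days, replicate series and depth. Of 6475 genes at a mean of at least 10 FPKM, those most like *Phgdh* were *Hp1bp3* (r = 0.991), *Sms*, *Phb*, *Pnlip* and *Magi1* (0.988, 0.987, 0.986 and 0.985), and those most like *Atf4* were *BC017643* (r = 0.93), *Tusc2* (0.93), *Ccnc* (0.90), *Fam188a* (0.89) and *Pdcl3* (0.88).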

How the data were processed

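Stranded mRNA libraries of the 8 OPC cultures were processed by the authors with OmicSoft ArrayStudio, and FPKM per gene were deposited for each library. The labels name the genome build mm10. The aligner, the gene model and the strand setting are not given in the sources used here. All 8 columns were matched to samples by title.

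Of 23427 genes, the 12208 that reached an FPKM of 1 in 2 or more libraries were tested on log2(FPKM + 1) with limma 3.58.1 in R 4.3.3 (lmFit, eBayes with trend, day as a factor of 4 levels, all 8 libraries). Adjusted p-values are those of Benjamini and Hochberg over all genes tested, and 0.05 was the threshold. The methods name DESeq2, which needs counts and was not used. On this scale the change of low genes is understated. Deviations from the day means were correlated between libraries of equal replicate number (r = 0.164 to 0.285 across genes for the 6 pairs of days), so fits with the replicate number as a block are given where they change a call or a count. The p-values measure the spread between these replicate libraries.

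The depth was estimated from low FPKM values and the lengths of genes with a single transcript in GENCODE M21 (GRCm38, the same assembly as mm10), from which coordinates also come. A fraction of 0.687 to 0.75 of the lowest values lay within 0.08 of a whole number of fragments. Such fragment numbers cover counting error only. The fit and the depth estimate were tested on simulated data. Figures were drawn with matplotlib 3.10.9.

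The 10 genes and the lists were chosen with earlier results of these data known. In each list the 4 largest rises and falls past the threshold are named, except 2 genes of the serine, glycine and folate list that are counted but not reported here by name. Alternatives were a pseudocount of 0.1, no filter (15267 genes), a filter at 10 FPKM in 1 library (8202 genes), 3 other scalings, the block, a fit of the days compared alone, eBayes without trend, and leaving out each library. For these alternatives, and for unadjusted p, the share of all genes passing is not given, so such counts have no background beside them.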

Additional observations from a re-analysis of the deposited data

How the results depend on the processing

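The falls of *Phgdh*, *Asns*, *Psat1* and *Shmt2* from Day 0 to Day 3 passed the threshold under all alternatives, including each library of these days left out. In that comparison 4 to 8 of the 10 genes were lower over the alternatives, 8 of them with the replicate block, and 4 to 6 when a library was left out. From Day 0 to Day 1 the number of lower genes went from 3 to 1 with a common library sum, to 1 with median ratio scaling, and to 1 in a fit of those 4 libraries alone, and it was 0 to 1 when a library was left out. From Day 2 to Day 3 it was 0 to 2 when a library was left out. *Trib3* lost its Day 3 call with quantile normalization and without replicate 1 of Day 0 or either Day 3 library. Among the 10 genes the replicate block changed no call of a comparison of days beyond those printed beside the results. The cause of these changes was not tested beyond the smaller number of libraries. At this depth *Trib3* and *Chac1* cannot be compared between days by fold.

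Differences that turned sign were all ones that had not passed. With a common library sum *Atf4* from Day 0 to Day 3 became 0.0226, and with median ratio scaling it became 0.18, *Mthfd2* from Day 1 to Day 2 became 4.39e-05, and the replicate difference of *Asns* became 0.0053. With quantile normalization *Chac1* from Day 0 to Day 1 became 0.11, and from Day 1 to Day 2 *Psat1* became -0.0102 and *Mthfd2* 0.0682. With a library left out, the change from Day 0 to Day 3 ranged from -0.33 to 0.0701 for *Atf4* and from -0.0589 to 1.35 for *Chac1*. From Day 0 to Day 1 it ranged from -0.29 to 0.32 for *Atf4*, from -0.75 to 0.66 for *Chac1* and from -0.77 to 0.16 for *Psph*. From Day 1 to Day 2 it ranged from -0.25 to 0.36 for *Atf4*, from -0.16 to 0.30 for *Asns*, from -0.53 to 0.79 for *Chac1* and from -0.76 to 0.41 for *Mthfd2*. From Day 2 to Day 3 it ranged from -0.40 to 0.0025 for *Atf4*, from -0.0523 to 1.18 for *Chac1*, from -0.32 to 1.05 for *Sesn2*, from -0.0630 to 0.21 for *Psph* and from -0.97 to 0.20 for *Mthfd2*.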
